A study of Petunia x hybrida with 7 samples.

Results

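The regions described here are the 2171 one-to-one pairs of PhDEF peaks found both in petals of the chimera wico and in wild-type petals of petunia. A pair was formed where a wico peak and a wild-type peak shared at least 1 bp and neither touched a further peak of the other list. The pairs hold 2171 of the 4276 wico peaks (50.8%, 95% interval 49.3 to 52.3%) and 2171 of the 3134 wild-type peaks (69.3%, 67.6 to 70.9%), out of 9626 peaks listed for the whole series. Another 15 wico peaks and 12 wild-type peaks formed 9 groups of several overlapping peaks, and 2090 wico and 951 wild-type peaks touched no peak of the other list. Some listed peaks are pieces of the same call, with the same replicate intervals and signals: the 4276 wico peaks come from 4242 calls and the 3134 wild-type peaks from 3088. Such pieces are counted as separate peaks here, and 22 of the 2171 pairs share a call with another pair, none of them among the pairs named below.

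Chromatin immunoprecipitation followed by sequencing (ChIP-seq) recovers the DNA fragments to which a protein is cross-linked, and a peak is a stretch of the genome where such fragments pile up. The genotypes compared are wico and the wild type, each with 2 precipitated libraries. Petals of wico have a wild-type epidermis over a mesophyll that carries a mutant phdef allele, and wild-type petals have the functional gene in both layers. Both genotypes are labelled cultivar R27, and in both the whole petal, tube and limb together, was taken at flower stage 8. A further chimera, star, has the opposite arrangement with a mutant epidermis and a wild-type mesophyll, and the only input library came from wild-type petals. Chromatin of both layers was extracted together, so a smaller number of PhDEF-bound nuclei and weaker binding in each nucleus cannot be told apart. The lists name no genes and carry no reads, so the layer in which a wico peak is bound could not be checked against marker genes.

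PhDEF is the petunia member of the DEFICIENS/APETALA3 lineage of MADS-domain transcription factors. Proteins of this lineage act with GLOBOSA/PISTILLATA-type partners, known as GLO proteins in petunia, and together specify petals and stamens. MADS-domain dimers recognise CArG boxes in DNA. In petunia petals the epidermis carries the anthocyanin pigment and the conical cells of the limb, and the mesophyll lies between the epidermal sheets. The comparison of wico with the wild type asks how sites bound in the whole petal are ranked when functional PhDEF is present in the epidermis alone.

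Each listed peak joins both libraries of a genotype. It carries a signal value for each library, in what are called here the first and the second replicate column, and the sum of both. The columns do not say which numbered replicate they hold. The signal is the value of the authors' peak caller, given without a unit because its scale is not stated in the sources used here, and it served only to rank peaks inside a list. The replicates are separate biological samples per the labels. Ranks are given as percentiles, where 100 is the strongest peak, either inside the whole list or among the 2171 paired peaks. The second kind has the same number of members in both genotypes and is not moved by the longer wico list. With 2 replicate columns per genotype no exact two-sided permutation test over the columns can give a p below 0.333, so the results are descriptions set beside the spread between replicates. Intervals of shares are exact Clopper-Pearson intervals and intervals of medians come from order statistics, both at 95%. They cover counting error only, since peaks of a list share their libraries.

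The paired sites kept much of their order of signal between the genotypes. In single libraries they differed more between the genotypes than between the wico libraries, and about as much as between the wild-type libraries where the second wild-type column was compared. Over the 2171 pairs, the rank correlation of the summed signal between wico and the wild type was 0.750. Between the replicate columns of a single genotype it was 0.772 in wico and 0.670 in the wild type. The 4 combinations of a wico column with a wild-type column gave 0.615 and 0.704 for the first wico column and 0.602 and 0.671 for the second, each with the first and then the second wild-type column. Thus the second wild-type column ranked the paired sites as much like the wico columns as like the other wild-type column. These correlations run across peaks that had passed a reproducibility filter in both lists, and they carry no p.

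The size of the rank differences showed the same order. Between genotypes, the ranks of a pair in single columns differed by a median of 15.4, 12.4, 15.6 and 13.4 percentile points in the 4 combinations, in the order given above. The median difference was 11.0 points between the wico columns and 13.9 points between the wild-type columns. The SD of the rank difference was 22.2 to 25.8 points between genotypes, 19.5 points within wico and 23.4 points within the wild type. Both combinations with the first wild-type column lay above the wild-type replicate spread, at 25.4 and 25.8 points, and the combinations with the second wild-type column lay at 22.2 and 23.4 points.

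**Figure D1:**
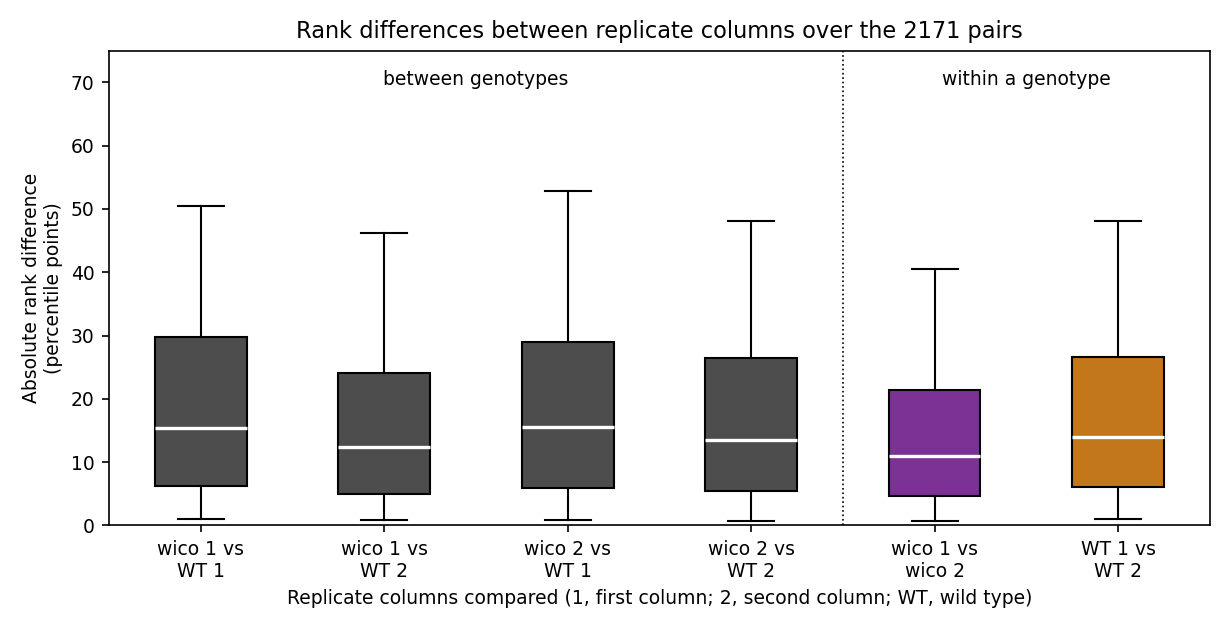
Absolute difference in signal rank of a pair (percentile points, vertical axis) between replicate columns, for the 4 combinations of a wico with a wild-type column (grey), the wico columns (purple) and the wild-type columns (orange). Boxes span the quartiles with the median in white, and whiskers the 5th to 95th percentile of 2171 pairs. The medians between genotypes, 12.4 to 15.6 points, surround the 13.9 points between the wild-type columns, and the wico columns are closest at 11.0 points.

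A pair was called apart when both replicate ranks of wico lay above, or both below, both ranks of the wild type. Both wico ranks were higher in 448 of 2171 pairs, or 20.6% (19 to 22.4%), and both were lower in 434 pairs, or 20% (18.3 to 21.7%). In the pairs outside these 882 (40.6%) the ranks of the genotypes overlapped. With interchangeable columns about 0.333 of pairs would be apart, counting both directions together, so many of these calls need no difference between the genotypes. With a margin of 5 percentile points between the nearest ranks, the share of pairs apart in either direction was 25.5%. By the summed signal, 305 pairs ranked at least 20 points higher in wico (14%) and 313 at least 20 points lower (14.4%). Higher and lower pairs were about equally frequent. Single columns differed by at least 20 points in 28.0% of pairs within wico and in 36.2% within the wild type. Between a wico and a wild-type column the share was 32.7 to 40.4%. Summed ranks average over both libraries, so their shares are not on an equal footing with those of single columns. Ranks among the pairs sum to the same total in both genotypes, so their mean shift is 0 by construction. The SD of the shift among pairs was 20.4 points, and the middle 50% of pairs lay between -10.6 and 11.6 points.

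**Figure D2:**
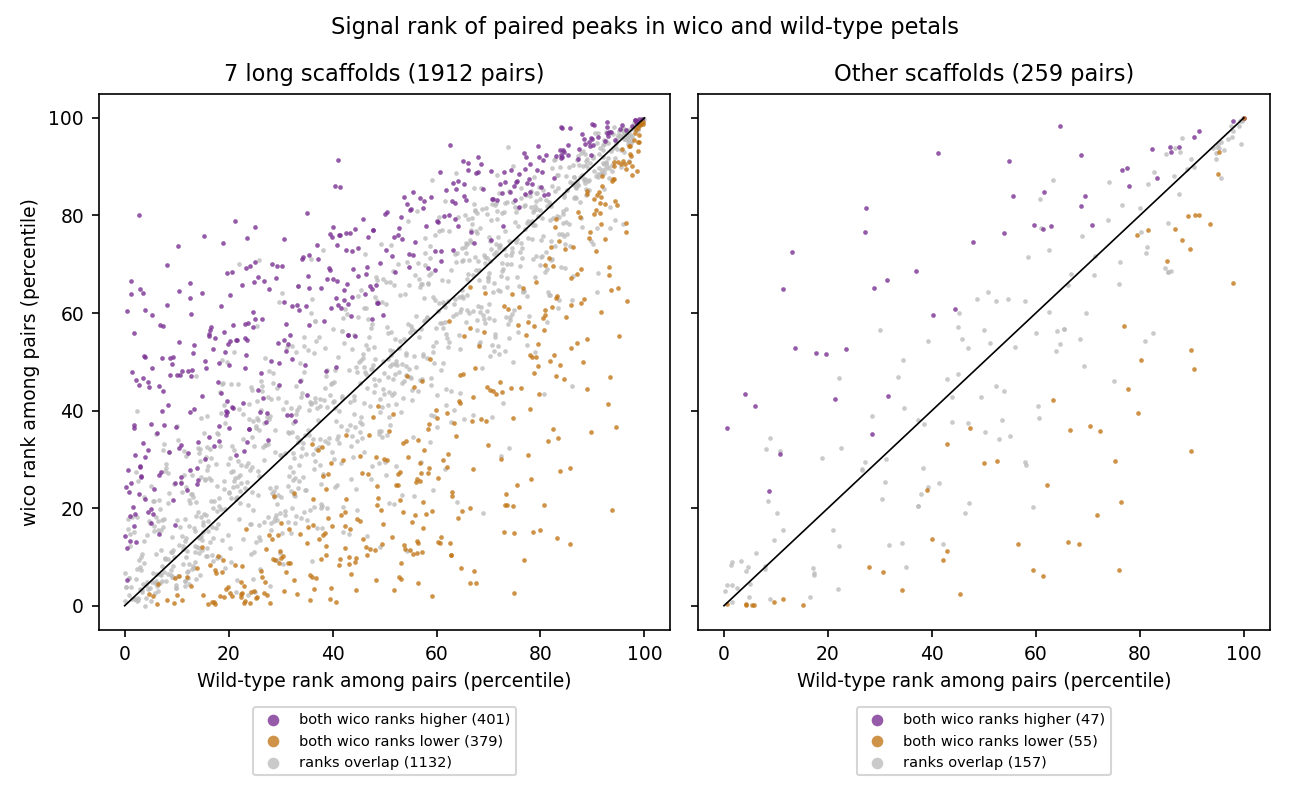
Rank of the summed signal among pairs (percentile) in wico against the wild type, for pairs on the 7 long scaffolds (left) and on other scaffolds (right), with the line of equal rank. Purple pairs have both wico replicate ranks above both wild-type ranks, orange pairs have both below, and grey pairs overlap. Of the pairs, 401 are purple and 379 orange on the long scaffolds, and 47 and 55 on the others, and in both panels points gather at the line at the strong end.

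Inside the whole lists, paired sites had higher percentiles in wico. The median percentile of the pairs was 69.6 in the wico list (68.1 to 71.1) and 62.2 in the wild-type list (60.6 to 63.8). The median shift was 4.38 points (3.71 to 5.13), and 1431 of 2171 pairs, or 65.9% (63.9 to 67.9%), had the higher percentile in wico. Percentiles in lists of different length cannot show whether binding changed, since they also depend on the unpaired peaks of each list. The unpaired peaks stood low in both lists, and the wico list held more of them. The 2105 wico peaks outside pairs had a median percentile of 30.4, and the 963 wild-type peaks outside pairs had 22.8. Among the pairs alone the median shift was 0.230 points (-0.322 to 0.737). When only the 3134 strongest wico peaks were ranked, as many as the wild-type list holds, the median shift was -1.12 points over the 1987 pairs that this list forms, which leaves out pairs with the weakest wico peaks. With peaks of a global IDR, an estimate of the rate of irreproducible peaks, of at most 0.02 in both lists, 1400 pairs remained and their median shift was 8.61 points.

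The rank shift was also described by strength of the pair. The strength classes are cut on the same ranks whose difference is described, so differences between classes are partly set by the split. The pairs were split by mean rank into 10 classes of 217 or 218, class 1 being the weakest. In class 10 the whole-list shift had a median of 0.587 points (0.329 to 1.01), and the SD of the shift among pairs was 4.08 points. In class 4 the median was 11.9 points (6.13 to 15.6) and the SD 29.3 points. Ranks near the bounds of the scale can move little, so the narrow spread at both ends and the small median in class 10 follow at least in part from the sorting. The replicate columns showed the same arch, with an SD of 5.93 points within wico and 9.57 points within the wild type in class 10, and of 22.5 and 26.8 points in class 4. The summed ranks average over both libraries and the single columns do not, so these values are not on an equal footing. In class 1, both wico ranks were higher in 20 of 218 pairs, or 9.17% (5.69 to 13.8%), below the 20.6% over all pairs, and both were lower in 46 pairs, or 21.1% (15.9 to 27.1%), close to the 20% over all pairs.

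**Figure D3:**
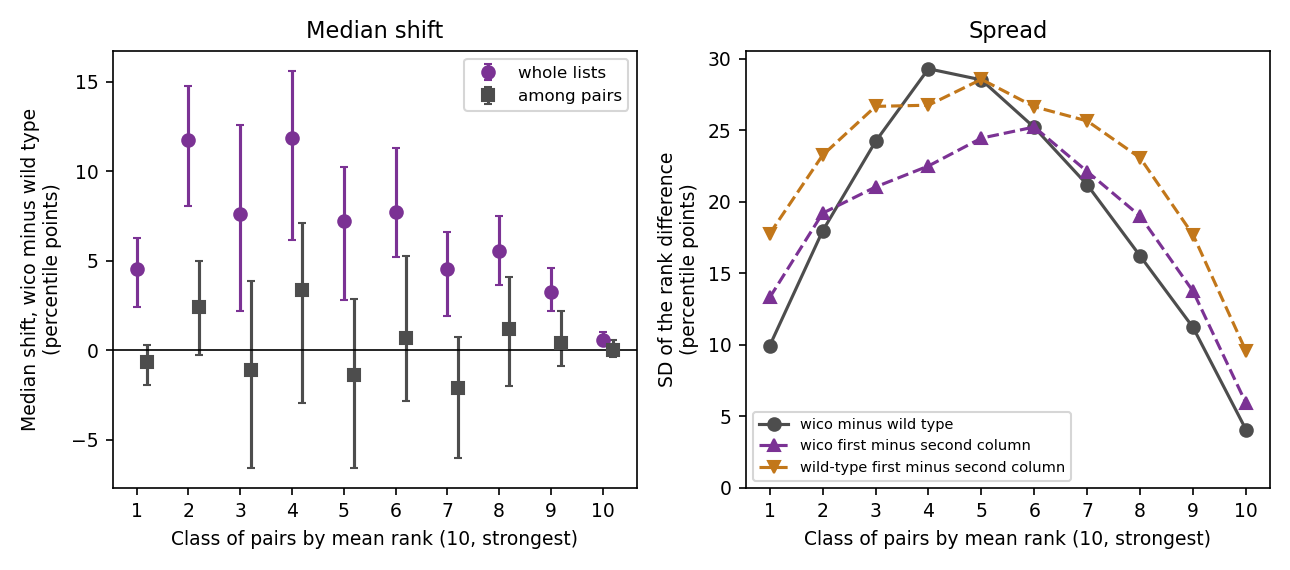
Left, median shift of the percentile (wico minus wild type) by class of mean rank (10 classes of 217 or 218 pairs, class 10 the strongest), in the whole lists (circles) and among the pairs alone (squares), with 95% order-statistic intervals. Right, SD of the rank difference in each class for the summed signal of wico minus the wild type and for the first minus the second column of each genotype. The whole-list shift is smallest in class 10, at 0.587 points, and all 3 spreads are smallest there, close to the upper bound of the rank scale.

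The resolution of weak ranks is limited by the signal values themselves. In each replicate column, 31.2 to 40.6% of the values were whole multiples of a step of 0.181 to 0.205 signal units, within 0.0005. What a step stands for is not stated in the sources used here. The weakest of these values lay at 17 or 18 steps. One step above the lower quartile of the pairs held 4.33 and 4.97% of pairs in the first and second wico columns, and 6.17 and 4.24% in the first and second wild-type columns. A change of a single step there moves a pair by about as many percentile points.

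The strongest pair of each long scaffold ranked within the upper 2% of both sets of pairs. On HiC_scaffold_4, the wico peak at positions 66933142 to 66933590 had signals of 27.4 and 23.2, and the wild-type peak at 66933128 to 66933570 had signals of 15.8 and 26.3. It ranked 4 in the wico list and 4 in the wild-type list, and the summits of both genotypes lay 1 bp apart. On HiC_scaffold_2, the wico peak at 118663368 to 118664172 had signals of 22.5 and 19.7, against 12.6 and 18.8 in the wild-type peak at 118663401 to 118664176, with list ranks of 6 in wico and 10 in the wild type. In both pairs the first wild-type column was the low one.

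On HiC_scaffold_6 the strongest pair lay at 7329230 to 7329905 in wico, with signals of 21.5 and 17.1, and at 7329193 to 7329890 in the wild type, with signals of 14.3 and 16.1. On HiC_scaffold_3 it lay at 127495714 to 127496395 in wico, with signals of 17.9 and 15.4, and at 127495669 to 127496407 in the wild type, with signals of 11.2 and 12.7, and both genotypes listed the same summit. These pairs were at list ranks 7 and 23 in wico and 12 and 45 in the wild type.

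The strongest pairs of the remaining long scaffolds had larger rank numbers in the longer wico list than in the wild-type list. Their percentiles inside the lists were nearly equal, at 99.3 to 99.5 in wico and 99.4 to 99.6 in the wild type. On HiC_scaffold_1 the wico peak at 90620200 to 90620812 had signals of 16.0 and 17.7, against 10.3 and 19.8 in the wild-type peak at 90620228 to 90620753, with list ranks of 22 in wico and 13 in the wild type. On HiC_scaffold_7 the wico peak at 18917403 to 18917906 had signals of 16.2 and 15.5, against 12.8 and 16.2 in the wild-type peak at 18917402 to 18917936, with list ranks of 29 in wico and 15 in the wild type. On HiC_scaffold_5 the wico peak at 3808117 to 3808498 had signals of 16.6 and 14.8, against 12.4 and 15.2 in the wild-type peak at 3808058 to 3808486, with list ranks of 30 in wico and 21 in the wild type. In each of these 7 pairs a star peak overlapped as well.

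The strongest pairs outside the long scaffolds had nearly identical positions and ranks. On HiC_scaffold_48926 the peak covered positions 2 to 267 in wico, with signals of 38.8 and 42.9, and 2 to 266 in the wild type, with signals of 39.7 and 38.5. On HiC_scaffold_45804 it covered 1 to 275 in wico, with signals of 37.5 and 41.4, and 2 to 275 in the wild type, with signals of 39.9 and 39.0. On HiC_scaffold_34455 both genotypes listed positions 4 to 339, with signals of 31.1 and 34.7 in wico and 32.4 and 29.6 in the wild type. These 3 pairs took the first 3 ranks of both lists.

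The largest rank differences joined middling or strong peaks of a genotype with peaks of the other that ranked low among the pairs. The 5 pairs that ranked furthest higher in wico, of those with ranks apart, lay on HiC_scaffold_1, 4 and 7. At 135073633 to 135074721 of HiC_scaffold_1 the wico signals were 9.43 and 7.42, at ranks of 81.9 and 75.4 among pairs. The wild-type peak there, at 135074272 to 135074679, had signals of 3.76 and 3.95, at ranks of 12.7 and 4.38. The wico interval was also the wider by 681 bp, mainly through its first replicate interval of 1089 bp, whereas the second spanned 530 bp.

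The next largest difference was at 154995904 to 154996545 of HiC_scaffold_7. Its wico signals were 6.35 and 7.96, at ranks of 46.5 and 81.1, and its wild-type signals were 3.94 and 3.56, at ranks of 20.4 and 0.138. At 69846051 to 69846536 of HiC_scaffold_4 the wico signals of 8.51 and 6.93 stood at ranks of 74.5 and 69.0, and the wild-type signals of 4.25 and 4.12 at ranks of 30.9 and 6.26. The replicate ranks did not overlap between the genotypes at any of these sites, as the choice of pairs required, but on HiC_scaffold_7 the wico columns themselves stood far apart.

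The remaining pairs of this kind had wild-type ranks below 10 in both columns. At 86583959 to 86584367 of HiC_scaffold_4 the wico signals were 6.22 and 7.83 and the wild-type signals 3.51 and 4.00. At 142315675 to 142316127 of HiC_scaffold_1 the wico signals were 7.77 and 6.37 and the wild-type signals 3.41 and 4.31. None of the 5 sites was overlapped by a star peak, and the nearest star peak lay 64296 to 727457 bp away.

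The 5 pairs that ranked furthest lower in wico joined wild-type peaks of the upper ranks with wico peaks of the lower ranks. At 173637238 to 173637672 of HiC_scaffold_2 the wico signals were 5.32 and 3.62, at ranks of 26.9 and 2.90. The wild-type signals there were 6.57 and 9.29, at ranks of 84.3 and 85.9, and the listed widths were 435 bp in wico and 434 bp in the wild type. This site differed in rank by -73.2 points while the widths were nearly equal.

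At 135060297 to 135060856 of HiC_scaffold_3 the wico signals were 5.50 and 4.11 and the wild-type signals 11.7 and 7.27, and the rank difference was -74.1 points. The wild-type interval of 1049 bp was shorter there than the span of its replicate intervals, and the summits were 178 bp apart. At 103882196 to 103882856 of HiC_scaffold_5 the wico signals were 4.30 and 3.44 and the wild-type signals 4.70 and 9.09. Here the wild-type columns disagreed, with ranks of 47.4 and 83.9.

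At 112394249 to 112394641 of HiC_scaffold_1 the wico signals were 4.71 and 4.34 and the wild-type signals 5.26 and 10.0. At 11667 to 11949 of HiC_scaffold_7189 the wico signals were 4.09 and 4.34 and the wild-type signals 4.88 and 9.09, and the summits were 301 bp apart. The listed wild-type interval of 563 bp was shorter there than its replicate intervals of 797 and 889 bp. Of these 5 sites, 4 were overlapped by a star peak, and HiC_scaffold_7189 held no listed star peak.

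**Figure D4:**
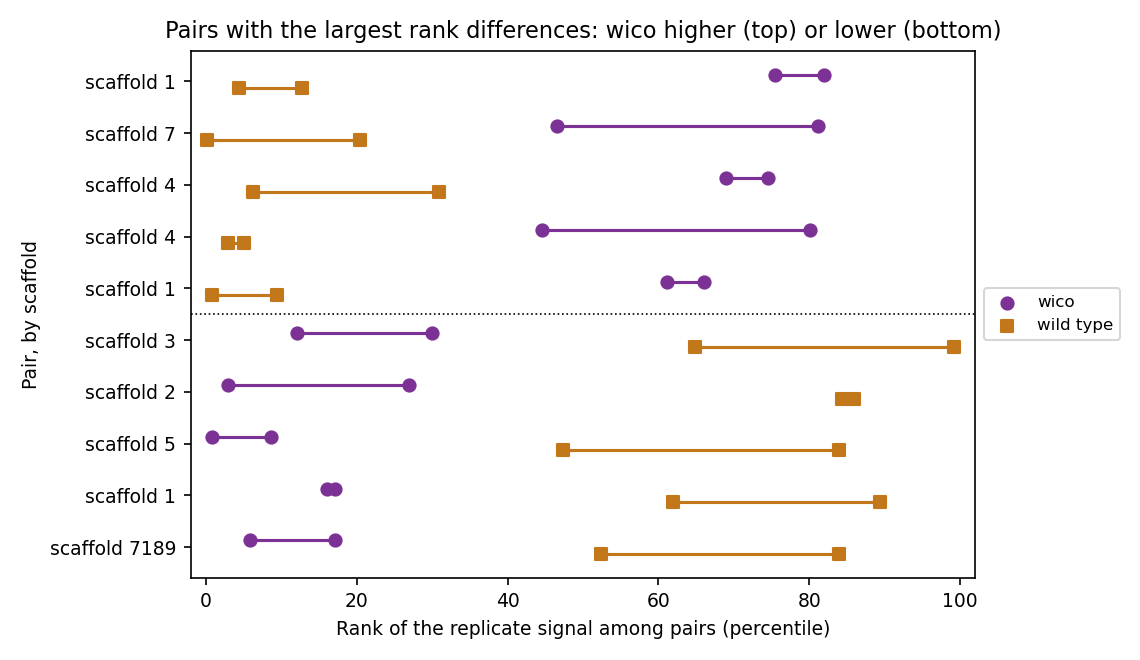
Ranks of the replicate signals among pairs (percentile, horizontal axis) for the 5 pairs that ranked furthest higher in wico (top) and the 5 that ranked furthest lower (bottom). Points are the 2 replicate columns of wico (purple circles) and of the wild type (orange squares), joined by a line. The pairs were chosen for this separation, and at several sites the columns of a single genotype stand far apart, as the wico ranks of 46.5 and 81.1 do on HiC_scaffold_7.

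The contrast in star overlap between these extremes was weaker over the larger groups. A star peak overlapped 935 of the 2171 pairs, or 43.1% (41.0 to 45.2%). Of the 65 pairs at least 40 points higher in wico, 22 were overlapped by star, or 33.8% (22.6 to 46.6%). Of the 78 pairs at least 40 points lower in wico, 34 were overlapped, or 43.6% (32.4 to 55.3%). The share was 31.2% (25.4 to 37.5%) among pairs 20 to 40 points higher in wico, 36.6% (30.4 to 43.1%) among those 20 to 40 points lower, and 46.2% (43.7 to 48.8%) among pairs that moved less. These groups also differed in strength, with median percentiles in the wico list of 80.0, 35.6, 75.1, 49.8 and 73.0 in that order, and of 25.0, 77.0, 43.6, 67.0 and 64.6 in the wild-type list. Pairs with a star peak were stronger than those without, at median percentiles of 80.9 against 61.9 in wico and 76.4 against 52.2 in the wild type. Both wico ranks were higher in 19.5% and lower in 21% of pairs with a star peak, and in 21.5% and 19.3% of pairs without, all near the shares over all pairs.

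Paired peaks were listed slightly narrower in wico, but in single libraries the direction depended on the library. The median listed width was 419 bp in wico and 443 bp in the wild type, and the median change within a pair was -14 bp (-19 to -9). Of the pairs, 1219 were narrower in wico, or 56.1% (54.0 to 58.2%), and 933 were wider, or 43.0%. The listed interval of a peak usually equals the span of its replicate intervals, so it is wide where the replicates differ. In single libraries, the median interval of the paired peaks was 373 and 362 bp in the wico columns and 329 and 417 bp in the wild-type columns. The mean of the medians was lower by 5.5 bp in wico (difference of -5.5 bp, two-sided exact permutation p = 1 over the columns, with 0.333 the smallest p possible). The direction turned with the wild-type column, since the median change against the first was 38 and 25 bp for the first and second wico columns, and against the second it was -31 and -41 bp.

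**Figure D5:**
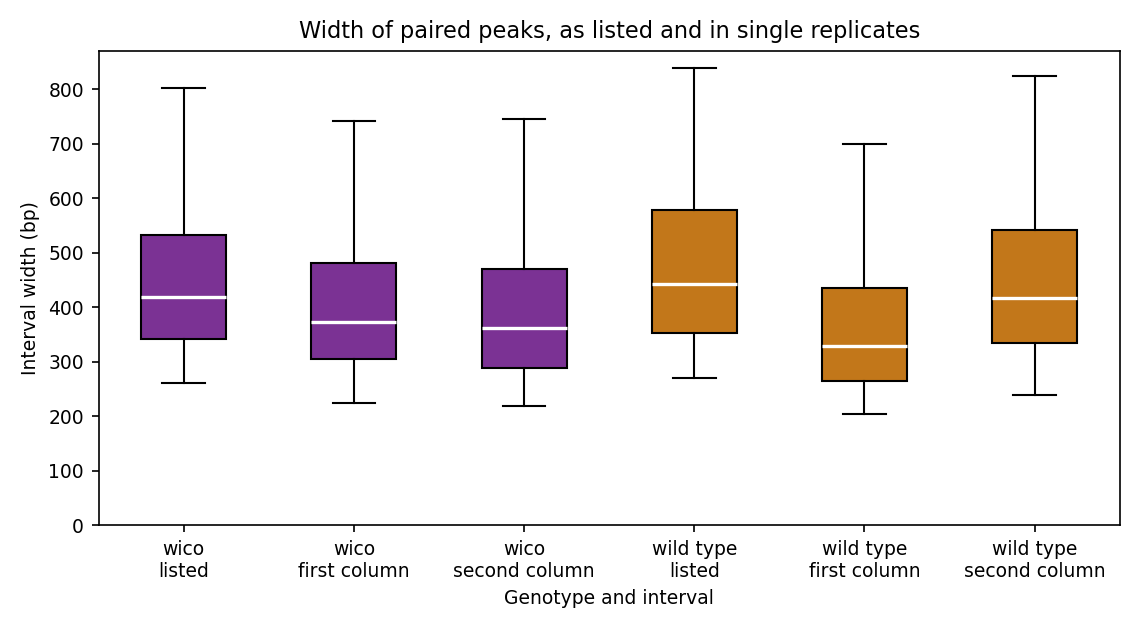
Width of the paired peaks (bp) as listed and in the single-replicate intervals, for wico (purple) and the wild type (orange). Boxes span the quartiles with the median in white, and whiskers the 5th to 95th percentile of 2171 pairs. The medians of the wico columns, 373 and 362 bp, lie between those of the wild-type columns, 329 and 417 bp.

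Both single-replicate widths of wico exceeded both of the wild type in 301 of 2171 pairs (13.9%), and both were smaller in 353 pairs (16.3%). With interchangeable columns about 0.333 of pairs would be separated in this way, counting both directions together. The largest gain was at 101903988 to 101905388 of HiC_scaffold_5, where the single-replicate widths were 1208 and 1380 bp in wico and 253 and 217 bp in the wild type. This site was weak in both genotypes, with signals of 3.69 and 5.43 in wico and 4.13 and 3.76 in the wild type. At 92808837 to 92810129 of HiC_scaffold_3 the widths were 1028 and 1035 bp in wico and 471 and 553 bp in the wild type, and the pair ranked 52.6 points higher in wico. At 39062359 to 39063401 of HiC_scaffold_4 they were 696 and 1043 bp in wico and 204 and 350 bp in the wild type.

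The largest loss was at 55806025 to 55806614 of HiC_scaffold_4, where the widths were 528 and 583 bp in wico and 1316 and 1227 bp in the wild type. In the other losses only a single wild-type library was broad. At 97513535 to 97513810 of HiC_scaffold_1 the widths were 276 and 234 bp in wico and 302 and 1282 bp in the wild type. At 99780000 to 99780337 of HiC_scaffold_4 they were 260 and 269 bp in wico and 388 and 1228 bp in the wild type. Across all pairs, width and rank moved together weakly, with a rank correlation of 0.199 between the log2 width ratio and the rank shift. Width itself ranked alike in both genotypes (rank correlation of 0.667 between the listed widths).

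The summits of a pair lay close together in most pairs. Listed summits of a pair lay a median of 19 bp apart (18 to 20), and 1818 pairs, or 83.7% (82.1 to 85.3%), had summits within 50 bp of each other. The listed summit was the mean of the replicate summits, within 1 bp, in 98.1% of wico peaks and 97.2% of wild-type peaks. Listed distances are thus not on an equal footing with those of single columns. Between single columns the median distance was 23 to 27 bp between genotypes, 22 bp within wico and 25 bp within the wild type. The distances against the second wild-type column, 23 bp for both wico columns, lay between those within the genotypes, and the distances against the first, 27 and 26 bp, were slightly larger. Strong pairs were placed most closely, with a median of 11 bp (9 to 14) in class 10 and of 30 bp (25 to 35) in class 1. The shorter interval was fully covered by the longer in 1115 pairs, or 51.4% (49.2 to 53.5%). The wico interval lay inside the wild-type one in 662 pairs (30.5%), and the wild-type interval inside the wico one in 458 pairs (21.1%).

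Few pairs rested on a small overlap, but stricter rules of pairing left fewer pairs than 2171. A reciprocal overlap of at least 50% left 2081 pairs, and centres at most 100 bp apart left 1863. The smallest overlap was 21 bp, between a wico peak at 84821937 to 84822224 and a wild-type peak at 84821208 to 84821957 of HiC_scaffold_4, and the next smallest was 127 bp. The closest peaks that did not overlap were 49 bp apart, at 2985920 to 2986324 in wico and 2986374 to 2986787 in the wild type on HiC_scaffold_3. Only 2 of the 2090 wico peaks without overlap had a wild-type peak within 100 bp.

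The spread of the replicate columns was slightly wider in the wild type than in wico, and the offsets of the columns differed as well. Over the pairs, the log2 of the first signal divided by the second had an SD of 0.31 in wico and 0.33 in the wild type. Its median was 0.18 in wico, with the first column higher in 72.2% of pairs, and -0.38 in the wild type, with the first column higher in 12.5%. After the median was taken off, replicate signals differed by more than 1.5-fold in 141 wico pairs (6.49%) and in 171 wild-type pairs (7.88%). In wico the offset ran between 0.11 in class 1 and 0.24 in class 8. In the wild type it was -0.14 in class 1 and -0.49 in class 10, so the offset between the wild-type columns was smallest at weak sites. Class 1 was cut on low rank, and the lowest signals of the pairs were 3.38 and 3.56 in the wild-type columns. The part of this lower bound in the small offset was not tested. In ranks the wild-type columns differed more in class 1 (SD of 17.8 points) than in class 10 (9.57 points). The median signal of the pairs was 6.57 and 5.79 in the wico columns and 4.81 and 6.34 in the wild-type columns.

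Most pairs lay on the 7 long scaffolds, HiC_scaffold_1 to HiC_scaffold_7, with 1912 pairs, and the other 259 pairs were spread over 234 short scaffolds. Of these, 214 held a single pair. On the long scaffolds 51.8% of wico peaks (50.2 to 53.4%) and 71.2% of wild-type peaks (69.4 to 72.9%) were in pairs, against 44.3% of wico peaks (40.3 to 48.5%) and 57.9% of wild-type peaks (53.2 to 62.6%) on the short ones. Among the long scaffolds the paired share of wild-type peaks ran between 66.0% on HiC_scaffold_7 and 74.8% on HiC_scaffold_1, and that of wico peaks between 46.8% on HiC_scaffold_7 and 57.9% on HiC_scaffold_1.

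The upward shift in the whole lists had a larger median on the long scaffolds. Its median was 4.68 points on the long scaffolds (4.02 to 5.49) and 1.07 points on the others (0.0618 to 4.36), a difference of 3.61 points. Among the pairs alone the medians were 0.415 points on long and -0.737 points on short scaffolds, a difference of 1.15 points. The difference was 0.415 points when the 3134 strongest wico peaks were ranked, and 1.13 points with the wild type ranked without its first replicate column. On single long scaffolds the median whole-list shift ran from 2.91 points on HiC_scaffold_3 (1.67 to 4.66) to 6.12 points on HiC_scaffold_6 (3.59 to 9.24), and these intervals overlap.

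Over all pairs, the intervals of the shares of pairs apart and of the width change overlapped between both kinds of scaffold. Both wico ranks were higher in 21% of pairs on long scaffolds (19.2 to 22.9%) and 18.1% on short ones (13.6 to 23.4%). Both were lower in 19.8% on long scaffolds (18.1 to 21.7%) and 21.2% on short ones (16.4 to 26.7%), and all these shares were close to the 20.6% and 20% over all pairs. The rank correlation between the genotypes was 0.746 on long and 0.783 on short scaffolds. Median width change was -13 bp on long scaffolds (-18 to -8) and -21 bp on short ones (-31 to -8). The SD of the log2 replicate ratio was 0.30 in wico and 0.33 in the wild type on long scaffolds, against 0.33 in wico and 0.37 in the wild type on short ones.

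The weakest pairs differed between the kinds of scaffold in summit distance. In the weakest of 3 classes of equal size by mean rank, the median was 25 bp on long scaffolds (23 to 28, 647 pairs) and 39 bp on short ones (31 to 51, 77 pairs). Summits lay within 50 bp in 75.9% of these pairs on long scaffolds (72.4 to 79.1%) and 59.7% on short ones (47.9 to 70.8%). Their median width change was -13 bp on long scaffolds (-24 to -5) and -44 bp on short ones (-83 to -7). Both wico ranks were higher in 119 (18.4%) and lower in 133 (20.6%) of them on long scaffolds. On short scaffolds both were higher in 8 (10.4%, 4.59 to 19.4%) and lower in 18 (23.4%, 14.5 to 34.4%). Over all pairs the shares were 20.6% and 20%. In the strongest class the median summit distance was 14 bp on long scaffolds (12 to 16) and 11.5 bp on short ones (8 to 15). Of the pairs on short scaffolds, 27 had a wild-type peak starting in the first 500 bp, and their median whole-list shift was 0.531 points (-1.40 to 6.17).

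Pairs made in the same way with star peaks were less alike in rank. The star list is shorter, with 2216 peaks, of which 50.5% were paired with the wild type and 53.5% with wico, close to the 50.8% of wico peaks paired with the wild type. Star and the wild type formed 1118 pairs, with a rank correlation of 0.512 between the lists and an SD of the rank shift of 28.5 points. Star and wico formed 1186 pairs, with 0.501 and 28.8 points. For wico and the wild type these values were 0.750 and 20.4 points. Over the star and wild-type pairs the replicate columns correlated at 0.614 in star and 0.737 in the wild type, and over the star and wico pairs at 0.599 in star and 0.821 in wico. Both star ranks were above both wild-type ranks in 270 of 1118 pairs (24.2%) and below in 280 (25%), and above both wico ranks in 323 of 1186 pairs (27.2%) and below in 292 (24.6%). Interchangeable columns would put about 0.333 of pairs apart, counting both directions together. Both single-replicate widths of star were above both wild-type widths in 71 pairs (6.35%) and below in 449 (40.2%), and above both wico widths in 109 pairs (9.19%) and below in 508 (42.8%). Listed summits lay a median of 19 bp apart in star and wild-type pairs and 20 bp in star and wico pairs, against 19 bp in wico and wild-type pairs. The comparisons share lists and were not tested against each other, and the part of replicate spread in the difference was not tested.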

How the data were processed

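PhDEF ChIP-seq peaks of wico and wild-type petals were compared, each with 2 libraries combined by the authors in a single list. Petals were cross-linked with 2.5 mM disuccinimidyl glutarate for 1 h and 1% formaldehyde for 5 min, per the labels' protocols. Bowtie2 2.4.2, MACS2 and bedtools are named in the submitters' processing notes without a role. The genome build is not given in the sources used here. Lists were assigned by the library numbers in their names. Their 21 columns have the layout of the idr program, which estimates the irreproducible discovery rate (IDR) of peaks between replicates. The deposited signal values are those of the authors' peak caller for each replicate and their sum, with no stated normalization. The deposited −log10 IDR values show a filter at a global IDR of 0.1, and the deposited score is a capped form of them that ranks no peak here. List names state that input was removed, and 157 wico and 180 wild-type peaks are shorter than the span of their replicate intervals. The lists hold no read counts, so depth is unknown.

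Peaks were paired at 1 bp of overlap with own code, which differed from bedtools 2.31.1 intersect in 0 overlaps and was tested on simulated data. Summit positions were taken from the start of the replicate span. Ranks and overlaps were computed with scipy 1.17.1, pandas 2.3.3, networkx 3.6.1 and numpy 2.4.6 under Python 3.11.15, and figures drawn with matplotlib 3.10.9. Starts are counted from 1. The pairs and measures were chosen with earlier results of these data known. The named pairs are the strongest of each long scaffold, the 3 strongest elsewhere, the 5 largest rank differences in each direction with replicate ranks apart, and the 3 largest width differences in each direction with replicate widths apart. No genes, CArG boxes or sequences are given, since no genome was used here.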

Additional observations from a re-analysis of the deposited data

How the results depend on the processing

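Of the 143 values recomputed under alternatives, 120 kept their sign and stayed near the value reported, 20 moved further and 3 changed sign. Near means within the replicate spread or interval of the value reported, or within 1.5 times for a count. Except for counts, shares and the spread of the replicate columns, that spread was the SD of values recomputed with single columns. Those values are counted among the 143 too, so the count is no independent measure of stability. Keeping peaks with a global IDR up to 0.02 left 1400 pairs, with a median whole-list shift of 8.61 points, a wild-type replicate spread of 0.32 on the log2 scale and a summit distance of 16 bp. With as many wico as wild-type peaks the shift was -1.12 points and the scaffold difference 0.415 points, where fewer weak wico peaks remain by construction. Ranks among the pairs gave 0.230 and 1.15 points. Ranking by IDR gave a spread of 22.3 points and a correlation of 0.700. A margin of 5 points left 25.5% of pairs apart. With single replicate columns the shift was 3.60 to 5.82 points, its spread 21.3 to 24.4 points, the correlation 0.642 to 0.727, the scaffold difference 1.13 to 3.93 points, the width change -41 to 38 bp and the summit distance 23 to 27 bp. The width change was 38 and 25 bp against the first wild-type column. The replicate spread around the width change, -53.5 to 25.5 bp, held both signs, so values within it do not settle a direction. The cause of these changes was not tested, other than where stated. Merging peaks at most 100 bp apart changed nothing, because the closest neighbours were 176 bp apart in wico and 165 bp in the wild type. Leaving out pairs with a shortened peak or at scaffold starts, counting each call once, merging peaks at most 500 bp apart, the span of both replicates as width and the omission of summits outside their interval were chosen after seeing the data. CArG boxes were not searched, because that needs genome sequence. No paired analysis was possible because the replicate columns carry no replicate numbers and the results come from no fit. Unknown depth limits what weak ranks can show.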
